A study of Rattus norvegicus with 6 samples.

Results

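The small leucine-rich proteoglycans are a family of secreted matrix proteins, and 9 of their genes were chosen by name: Bgn, Dcn, Lum, Fmod, Ogn, Aspn, Prelp, Omd and Podn. Of these, 8 were listed in the files, among 14346 genes listed in all, and 7 passed the filter on low counts. RNA was sequenced from rat dorsal root ganglia, which hold the cell bodies of sensory neurons, 7 days after partial sciatic nerve ligation (pSNL, 3 libraries) or 7 days after a sham operation (sham, 3 libraries). The ligature takes in only a portion of the nerve, which leaves injured axons beside spared ones. The labels name no strain, sex, age or genotype, and do not say whether a library is 1 animal or a pool of animals. The p-values therefore rest on the spread from library to library, some of which may be technical.

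Each core protein of the family is a curved stack of leucine-rich repeats that binds collagen fibrils and sets how they assemble. Decorin and biglycan usually carry chondroitin or dermatan sulfate chains, lumican, fibromodulin and osteomodulin can carry keratan sulfate, and asporin and PRELP are made without such chains. Several members also bind TGF-beta, and free biglycan is known as a ligand of Toll-like receptors on macrophages. In peripheral nerve, decorin and lumican are used as markers of the fibroblasts of the nerve sheaths and of the endoneurium.

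RefSeq (GRCr8) promoter sequences were at hand for 6 of the 9 genes, Lum, Fmod, Ogn, Aspn, Omd and Podn. The 250 bases before the annotated start are printed for Lum and Ogn, whose pSNL libraries were all above the sham libraries, and for Fmod, whose libraries overlapped. Capitals mark matches to any of 5 short motifs, searched on both strands.
Lum chr7:34245456-34245705, plus strand: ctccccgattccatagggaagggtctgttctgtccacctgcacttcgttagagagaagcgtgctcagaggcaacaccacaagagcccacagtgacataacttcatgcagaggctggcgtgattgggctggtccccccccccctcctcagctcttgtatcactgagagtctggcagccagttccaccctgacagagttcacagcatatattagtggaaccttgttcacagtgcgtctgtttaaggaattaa
Ogn chr17:15258996-15259245, minus strand: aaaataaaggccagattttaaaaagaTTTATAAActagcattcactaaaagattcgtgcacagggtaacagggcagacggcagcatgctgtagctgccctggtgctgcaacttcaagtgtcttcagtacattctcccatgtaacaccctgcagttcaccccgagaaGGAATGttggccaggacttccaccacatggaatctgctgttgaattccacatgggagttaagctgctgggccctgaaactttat
Fmod chr13:48045317-48045566, plus strand: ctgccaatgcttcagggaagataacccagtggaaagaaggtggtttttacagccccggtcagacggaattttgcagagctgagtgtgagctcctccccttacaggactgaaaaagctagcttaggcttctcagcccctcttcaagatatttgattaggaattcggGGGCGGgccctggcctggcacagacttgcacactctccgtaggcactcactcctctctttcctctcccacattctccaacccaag
The motifs were the TATA box (TATAAA), the AP-1 site (TGANTCA), a SMAD site (CAGACA), a TEAD site (GGAATG) and the GC box (GGGCGG). No AP-1 and no SMAD match was in any of the 6 windows. Of the 33469 promoters of the same length, 6.3% held an AP-1 and 17.2% a SMAD match. At these shares 6 windows are too few to read a depletion from finding none. Shorter forms of either site were not searched. The window of Lum held no match to any of the 5. Ogn had 2 overlapping TATA box matches, 224 and 222 bases before the start, and 1 TEAD match at 84 bases. Over all promoters 12.9% held the TATA box and 12.1% the TEAD site. Fmod had 1 GC box, 85 bases before the start, a motif found in 30.5% of promoters. These matches describe letters in a window and were not tested as binding sites.

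The libraries were even in depth, with 4310643 to 4416121 estimated counts each, so that 1 CPM, the count scaled to TMM-adjusted library size, stood for 4.33 to 4.4 counts. Known nerve injury genes (6, among them Atf3 and Sprr1a) were higher in every pSNL library than in every sham library. A few libraries stood apart. Skeletal muscle markers summed to 1224 CPM in pSNL replicate 3 and 624 CPM in sham replicate 3, against 18.6 to 24.5 CPM in the other 4 libraries. Central tissue markers summed to 7375 CPM in sham replicate 3, against 830 to 1017 CPM in the others. Of the 14 sensory neuron markers checked, 13 were detected in all 6 libraries, with sums of 34349 to 36992 CPM in pSNL and 35829 to 44870 CPM in sham; 10 of these 13 had a negative estimate, and DESeq2 called 2 of them lower in pSNL, Nefl and Snap25.

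The family was led by decorin in both groups. Levels between genes are compared per length, in FPKM, a value scaled to gene length and library size, as the authors deposited it. Dcn, the decorin gene, averaged 304 ± 60.1 FPKM in pSNL and 145 ± 41.8 FPKM in sham (SD, n = 3 each), a level above that of 98.0% and 95.3% of the listed genes. Lumican followed at 70.3 ± 9.01 FPKM in pSNL and 36.9 ± 9.18 FPKM in sham, and biglycan at 51.6 ± 4.29 FPKM in pSNL and 32.7 ± 1.80 FPKM in sham. These 3 genes were apart from each other in pSNL, while the ranges of lumican and biglycan overlapped in sham.

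Osteoglycin came next, at 19.4 ± 1.78 FPKM in pSNL and 13.0 ± 1.87 FPKM in sham, and Prelp after it, at 13.7 ± 3.62 and 9.14 ± 2.44 FPKM in the same groups. Their ranges overlapped in both groups. Below a gap stood fibromodulin, at 2.95 ± 0.745 FPKM in pSNL and 3.56 ± 0.80 FPKM in sham. Osteomodulin, at 1.75 ± 0.101 FPKM in pSNL and 1.24 ± 0.521 FPKM in sham, overlapped with asporin, at 1.19 ± 0.542 and 1.18 ± 0.521 FPKM in the same groups. The order of the 8 means was the same in pSNL and in sham.

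**Figure D1:**
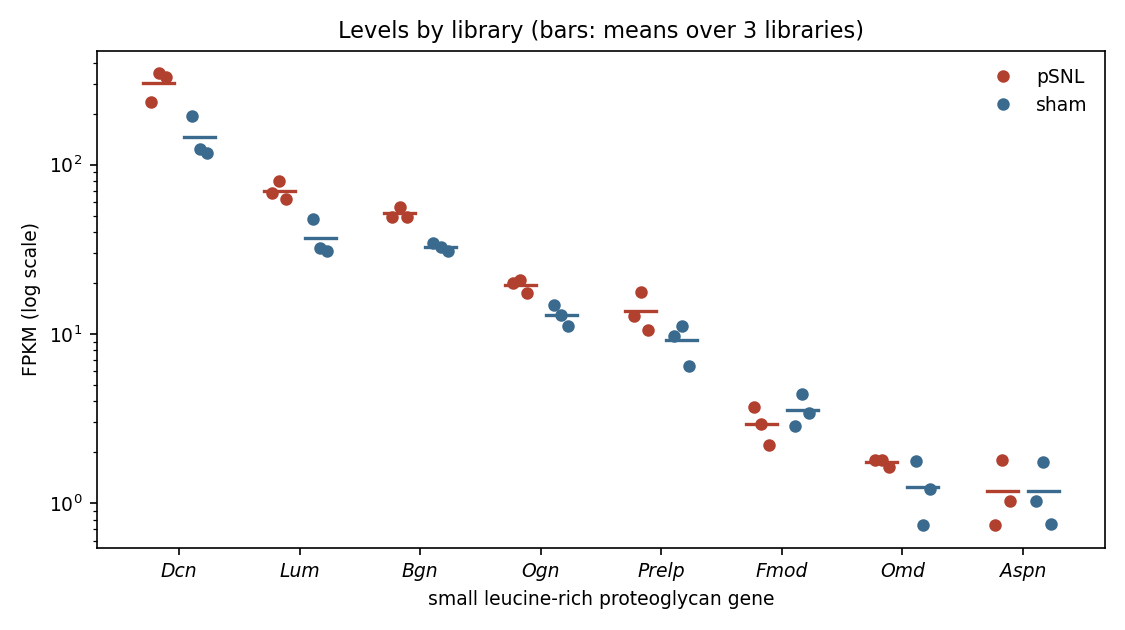
Deposited FPKM (log scale) of the 8 listed proteoglycan genes, 1 point per library with pSNL left of sham in each pair, and horizontal bars at the means of 3 libraries. Dcn is the highest gene in both groups, and the pSNL points lie above the sham points without overlap for Dcn, Lum, Bgn and Ogn.

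Summed over the 8 listed genes, the family reached 391, 528 and 475 FPKM in pSNL replicates 1, 2 and 3, and 305, 220 and 202 FPKM in sham replicates 1, 2 and 3. Every pSNL sum was above every sham sum. Dcn made up 60.1% to 69.5% of that sum in pSNL and 56.5% to 63.2% in sham, so the shares of the groups overlapped. Lum held 15.2% ± 2.05 in pSNL and 15.2% ± 0.435 in sham. The share of Bgn was 11.2% ± 1.17 in pSNL and 13.8% ± 2.17 in sham, again with overlap (SD, n = 3 each). Fmod held 0.466% to 0.946% in pSNL and 0.931% to 2.01% in sham.

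After pSNL, 1 of the 7 tested members, biglycan, rose past the threshold of an adjusted p of 0.05 (edgeR quasi-likelihood test, Benjamini-Hochberg over the 11091 tested genes), and none fell. Over all tested genes, 0.442% were called higher and 0.0180% lower. The libraries of both groups did not overlap for 4 of the 7, Bgn, Lum, Ogn and Dcn, all higher in pSNL, where 11.1% of all tested genes were apart in that direction. The log2 fold change (pSNL over sham) was positive for 6 of the 7, as it was for 49.4% of all tested genes. Its median was 0.57 over the 7 and -0.0024 over all tested genes. Of the 7, 5 had an unadjusted p under 0.05, as did 15.5% of all tested genes. Omd is counted among the 7 and among the 6 with a positive estimate. It met the minimum of the filter in 3 pSNL libraries and 1 sham library, and so was tested through the group where it is high. DESeq2 called 3 of the 7 higher, Bgn, Lum and Dcn, where it called 2.23% of all tested genes higher and 2.94% in either direction. Both libraries numbered 3 held the muscle markers. Without them the log2 fold changes were 0.63 for Bgn, 0.85 for Dcn, 0.87 for Lum and 0.53 for Ogn. The edgeR adjusted p were 0.0499 for Bgn, 0.347 for Dcn, 0.0852 for Lum and 0.0892 for Ogn, so only Bgn passed of these. In a bulk sample, more cells of a type and more RNA per cell cannot be told apart, which holds for each difference given here.

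Bgn (gene ID 25181) encodes biglycan, a partner of collagen fibrils and of innate immune receptors. It stood at 119, 139 and 123 CPM in pSNL replicates 1, 2 and 3, and at 86.0, 80.6 and 75.4 CPM in sham replicates 1, 2 and 3. The lowest pSNL library was 33.0 CPM above the highest sham library, and the spread within each group was narrow, 10.9 CPM (SD) in pSNL and 5.29 CPM in sham. The log2 fold change was 0.66 ± 0.10 (SE), or 1.58-fold (edgeR adjusted p = 0.0249). The call was lost without sham replicate 1, 2 or 3 (edgeR adjusted p = 0.0647, 0.158 and 0.0532) and without pSNL replicate 2 (0.0963), while the log2 fold change stayed between 0.58 and 0.71. The estimated counts of Bgn were not whole numbers, nor were those of Fmod, while those of the other 6 listed members were; the labels do not say how reads were shared between genes.

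Dcn (gene ID 29139) had the largest estimate in the family with all 6 libraries in the fit. It stood at 379, 568 and 546 CPM in pSNL replicates 1, 2 and 3, and at 319, 206 and 190 CPM in sham replicates 1, 2 and 3. The groups did not overlap, but pSNL replicate 1 and sham replicate 1 lay only 60.5 CPM apart, each well off the other libraries of its own group. The log2 fold change was 1.06 ± 0.25, or 2.09-fold, and did not pass the threshold (edgeR adjusted p = 0.129). DESeq2 called it (adjusted p = 0.026), and with sham replicate 1 left out the adjusted p in edgeR was 0.051; over all alternatives it ran up to 0.426, the value without pSNL replicate 2.

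Lum (gene ID 81682), which encodes the keratan sulfate proteoglycan lumican, stood at 116, 140 and 111 CPM in pSNL replicates 1 to 3 and at 83.4, 56.9 and 53.1 CPM in sham replicates 1 to 3. No pSNL library fell to the sham level, and sham replicate 1 was again the highest sham library. The log2 fold change was 0.92 ± 0.18, or 1.89-fold (edgeR adjusted p = 0.0662). Lum passed the threshold with DESeq2 (adjusted p = 9.38e-05) and with sham replicate 1 left out (edgeR adjusted p = 0.0311), and over all alternatives its adjusted p ran up to 0.252.

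Ogn (gene ID 291015) encodes osteoglycin, also called mimecan, a family member that takes part in collagen fibril growth. Its values were 52.9, 55.5 and 47.0 CPM in pSNL replicates 1 to 3 and 40.1, 34.9 and 29.4 CPM in sham replicates 1 to 3, with a gap of 6.90 CPM between the groups. The log2 fold change was 0.57 ± 0.14, or 1.49-fold (edgeR adjusted p = 0.0891). No alternative called it, with adjusted p between 0.0715 and 0.324.

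Prelp (gene ID 84400) encodes a basic member that links collagen to heparan sulfate of basement membranes. It stood at 18.2, 25.4 and 15.4 CPM in pSNL replicates 1 to 3 and at 14.2, 16.3 and 9.19 CPM in sham replicates 1 to 3. The groups overlapped, since sham replicate 2 was above pSNL replicate 3. Its log2 fold change of 0.57 ± 0.25 was as large as that of Ogn, with a wider error (edgeR adjusted p = 0.319).

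Fmod (gene ID 64507), which encodes fibromodulin, a binder of collagen type I, was the single tested member with a negative estimate. It stood at 10.9, 8.78 and 6.65 CPM in pSNL replicates 1 to 3 and at 8.48, 13.3 and 10.1 CPM in sham replicates 1 to 3. The groups overlapped, and the log2 fold change was -0.28 ± 0.27 (edgeR adjusted p = 0.658), between -0.46 and -0.09 under all alternatives.

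The 2 members of lowest level gave little to compare. Omd (gene ID 83717), which encodes osteomodulin, known from bone and tooth matrix, had 2.72, 2.77 and 2.52 CPM in pSNL replicates 1 to 3 and 2.75, 1.15 and 1.84 CPM in sham replicates 1 to 3. Its log2 fold change was 0.48 ± 0.42 (edgeR adjusted p = 0.623). It met the minimum of the filter, 2.28 CPM, in 3 pSNL libraries and 1 sham library, and so was tested through the group where it is high. On summed counts Omd had 35 in pSNL and 25 in sham, a ratio of 1.4 with an exact 95% counting interval of 0.814 to 2.44.

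Aspn (gene ID 306805), which encodes asporin, a member named for its run of aspartate residues, did not pass the filter. It had 1.14, 2.77 and 1.61 CPM in pSNL replicates 1 to 3 and 1.6, 2.75 and 1.15 CPM in sham replicates 1 to 3. The summed counts were 24 in pSNL and 24 in sham, with a counting interval of the ratio of 0.544 to 1.84, so that a change within these bounds was not detectable at this depth. Both intervals cover counting error only. Podn, which encodes podocan, was listed in none of the files; under the rule its value is 0, and since the annotation that the authors counted against is not given, no level is read from it.

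**Figure D2:**
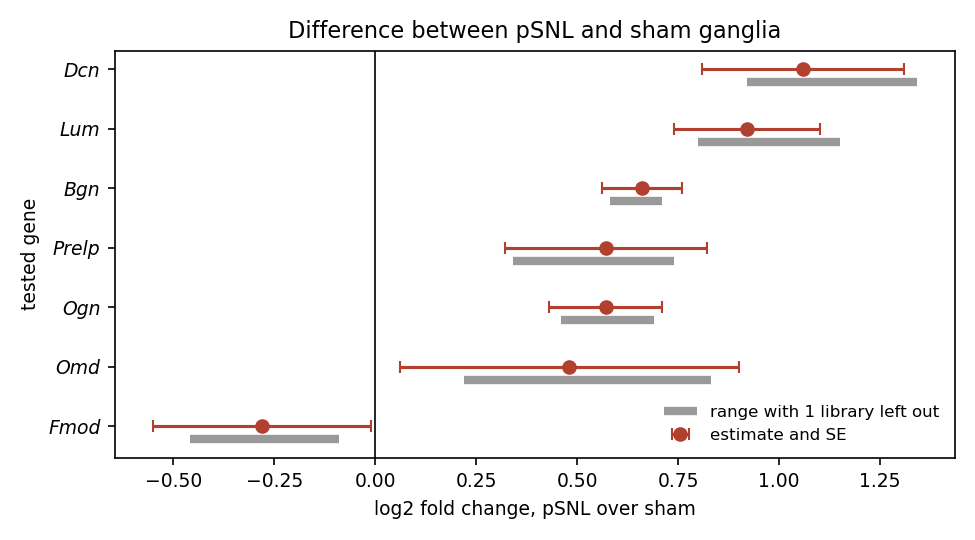
Log2 fold change of pSNL over sham for the 7 tested proteoglycan genes (points with SE from edgeR) and, as grey bars, the range with 1 library left out at a time. Dcn, Lum, Bgn, Prelp, Ogn and Omd lie above 0 and Fmod at -0.28.

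In pSNL, replicate 2 was the highest library for Bgn, Dcn, Lum, Ogn, Prelp, Omd and Aspn, and replicate 1 for Fmod. In sham, replicate 1 was the highest for Bgn, Dcn, Lum, Ogn and Omd, and replicate 2 for Fmod, Prelp and Aspn. Centred on each gene's mean over the 6 libraries, Dcn ran between 0.75 in pSNL replicate 2 and -0.83 in sham replicate 3 on the log2 scale. Fmod was at -0.49 in pSNL replicate 3 and 0.47 in sham replicate 2, so that its extremes lay in the other direction.

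To ask whether 1 member changed against another, the log2 ratio of each of the 21 pairs of tested members was compared between groups. Fmod was lower against Bgn, Lum and Ogn in every pSNL library than in every sham library. The log2 ratio of Lum over Fmod was 3.36, 3.92 and 3.96 in pSNL replicates 1 to 3 and 3.23, 2.06 and 2.34 in sham replicates 1 to 3, a mean difference of 1.21. Bgn over Fmod differed by 0.92, and Fmod over Ogn by -0.84. Lum over Ogn (0.36) and Lum over Omd (0.48) were also apart, which makes 5 of 21 pairs. Each of these had an exact two-sided permutation p of 0.1, the smallest that 3 against 3 libraries can give, and 0.35 after Benjamini-Hochberg adjustment over the 21, so no pair could pass. Of single tested genes, 21.5% were apart between groups in either direction. The pairs also share members, so the count of 5 is not read as a result. Dcn over Lum averaged 2.01 in pSNL and 1.87 in sham (exact permutation p = 0.6).

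In the RefSeq gene table several members lie side by side, namely Dcn with Lum, Ogn with Omd and Aspn, and Prelp with Fmod. Dcn and Lum, with positive estimates and no overlap, are followed by Kera and Epyc, family members known from cornea and cartilage. Kera had at most 0.23 CPM and Epyc at most 1.15 CPM in any library. Prelp and Fmod, which neighbour Optc, had estimates of opposite sign, and the log2 ratio of Fmod over Prelp averaged -1.12 in pSNL and -0.29 in sham (exact permutation p = 0.2). Among the other relatives looked up, Tsku, a secreted regulator of Wnt and BMP signals, was tested. It had 10.4, 9.94 and 8.94 CPM in pSNL and 8.02, 8.72 and 6.66 CPM in sham, without overlap (log2 fold change 0.32 ± 0.22, edgeR adjusted p = 0.527). Optc, Nyx and Chad stayed at or under 1.38 CPM.

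Collagens, the main ligands of the family, had positive estimates in 10 of 10 tested genes of the list, with a median log2 fold change of 0.76. With all 6 libraries and no block, no collagen reached an adjusted p of 0.05 by edgeR, with 8 of 10 under 0.05 unadjusted; DESeq2 called 4, Col5a1, Col5a2, Col5a3 and Col6a2. In edgeR, Col6a2 passed without pSNL replicate 1 (adjusted p = 0.0212) and Col5a3 without both libraries numbered 3 (0.0135). Col5a2, a chain of the collagen that starts fibrils, stood at 157, 203 and 152 CPM in pSNL and 124, 105 and 89.9 CPM in sham (log2 fold change 0.69 ± 0.15, edgeR adjusted p = 0.0801). Col5a1 was at 134 ± 34.7 CPM in pSNL and 57.5 ± 20.4 CPM in sham (edgeR adjusted p = 0.149). Col5a3 averaged 827 ± 161 CPM in pSNL and 502 ± 123 CPM in sham, and the microfibril collagen Col6a2 averaged 214 ± 50.1 CPM in pSNL and 143 ± 20.5 CPM in sham (edgeR adjusted p = 0.206 and 0.207).

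Elastic fibre genes gave 10 positive estimates of 11 tested (median 0.53). In edgeR with all 6 libraries, the filter and no block, no adjusted p was under 0.05 and 5 unadjusted p were. Fbn1 passed with the block (edgeR adjusted p = 0.0393), and DESeq2 called 1, also Fbn1. Fbn1, the gene of fibrillin-1, was at 54.3, 78.4 and 53.7 CPM in pSNL and 39.0, 36.7 and 26.2 CPM in sham, without overlap (edgeR adjusted p = 0.0891). Mfap2, a microfibril protein, was at 10.7 ± 1.87 CPM in pSNL and 5.05 ± 1.66 CPM in sham. Efemp2 and Emilin1, also in elastic fibres, had log2 fold changes of 0.53 ± 0.14 and 0.40 ± 0.14 (edgeR adjusted p of these 3 from 0.112 to 0.232). The fifth gene with an unadjusted p under 0.05 was Mfap4, at 12.6 ± 8.03 CPM in pSNL and 5.58 ± 1.08 CPM in sham, with overlap (edgeR adjusted p = 0.273).

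Of 13 tested genes of TGF-beta ligands, receptors and stores, 11 had a positive and 2 a negative estimate, with a median of 0.45. The 2 were the store Ltbp2 (-0.672) and the ligand Tgfb3 (-0.061), and the ligand Tgfb2 was at 0.041. In edgeR with all 6 libraries, the filter and no block, 1 rose and none fell, and 7 unadjusted p were under 0.05. With DESeq2 4 passed, Ltbp1, Tgfbi, Tgfbr2 and Tgfbr3, all higher in pSNL. The gene that rose was Tgfbi, a matrix protein induced by TGF-beta, at 139, 223 and 157 CPM in pSNL replicates 1 to 3 and 84.4, 75.3 and 67.8 CPM in sham replicates 1 to 3. Its log2 fold change was 1.19 ± 0.18 (edgeR adjusted p = 0.0361). The call was lost without pSNL replicate 3 (edgeR adjusted p = 0.0589) and without sham replicate 1, 2 or 3 (0.0896, 0.201 and 0.0989). Ltbp1, which holds latent TGF-beta in the matrix, was at 22.5 ± 8.02 CPM in pSNL and 8.64 ± 2.66 CPM in sham, and the co-receptor Tgfbr3 at 50.3 ± 9.02 CPM in pSNL and 29.5 ± 8.41 CPM in sham (edgeR adjusted p = 0.082 and 0.141).

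Of the receptors and surface partners known for biglycan, decorin or lumican, 11 were tested. Every one of the 11 had a positive estimate (median 0.49). In edgeR with all 6 libraries, the filter and no block, 5 unadjusted p but no adjusted p were under 0.05. Cd44 passed without pSNL replicate 1 (edgeR adjusted p = 0.044), and DESeq2 called 2, Itgb1 and Cd44. The integrin chain Itgb1 was at 538, 700 and 637 CPM in pSNL and 505, 496 and 400 CPM in sham, without overlap (log2 fold change 0.42 ± 0.12, edgeR adjusted p = 0.141). Cd44 was at 208 ± 56.0 CPM in pSNL and 129 ± 13.2 CPM in sham. Egfr, a receptor that decorin binds, was at 3.13 ± 0.505 CPM in pSNL and 1.07 ± 0.478 CPM in sham, and the Toll-like receptor co-receptor Cd14 at 5.81 ± 2.46 CPM in pSNL and 2.60 ± 1.18 CPM in sham (edgeR adjusted p of these 3 from 0.142 to 0.246). Egfr met the minimum of the filter in 3 pSNL libraries and 0 sham libraries, and Cd14 in 3 and 1, so that both were tested through the group where they are high. The purine receptor P2rx7 was the fifth, at 27.1 ± 6.71 CPM in pSNL and 19.3 ± 2.20 CPM in sham, with overlap (edgeR adjusted p = 0.26).

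Of 21 tested genes that build the sugar chains, 12 had a positive and 9 a negative estimate, with a median of 0.08. Over all tested genes 49.4% had a positive estimate. Neither edgeR nor DESeq2 called any of the 21. By edgeR 3 had an unadjusted p under 0.05, a share close to the 15.5% of all tested genes. Those 3 were Csgalnact1, which starts chondroitin chains, Ugdh, which makes their UDP-glucuronate precursor, and the chondroitin sulfotransferase Chst11. Ugdh was at 38.4, 37.7 and 38.3 CPM in pSNL and 24.5, 33.3 and 26.9 CPM in sham, without overlap (log2 fold change 0.43 ± 0.14, edgeR adjusted p = 0.179). Csgalnact1 was at 26.9 ± 3.25 CPM in pSNL and 18.8 ± 2.28 CPM in sham, and Chst11 at 7.05 ± 4.36 CPM in pSNL and 3.06 ± 0.268 CPM in sham (edgeR adjusted p = 0.158 and 0.232). Chst1, a keratan sulfotransferase, reached 51.7 CPM in sham replicate 3, the library with the high central tissue markers, against 14.0 to 19.2 CPM in the other 5, and its log2 fold change was -0.66 with that library and 0.12 without it.

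Of 9 tested proteases known to cleave members of the family, 7 had a positive and 2 a negative estimate (Mmp13 and Htra1), with a median of 0.16. In edgeR with all 6 libraries, the filter and no block, none was called. There 5 unadjusted p were under 0.05, where 15.5% of all tested genes were. Mmp2 and Adamts1 passed in edgeR without pSNL replicate 1 (adjusted p = 0.0134 and 0.0335). Mmp13 passed in edgeR with no filter (0.0373), with the block (0.0399) and without sham replicate 3 (0.045). DESeq2 called 3, Mmp2, Adamts1 and Mmp13. Mmp13 was at 0.45, 0.46 and 0.46 CPM in pSNL replicates 1 to 3, against 8.25, 3.21 and 2.30 CPM in sham replicates 1 to 3, without overlap (log2 fold change -3.25 ± 0.65, edgeR adjusted p = 0.0639). These are 2 counts in each pSNL library and 60 counts over the sham libraries, a ratio of summed counts, scaled to depth, of 0.1 with an exact 95% counting interval of 0.0354 to 0.231. Mmp13 met the minimum of the filter in 0 pSNL libraries and 3 sham libraries, and so was tested through the group where it is high. Mmp2 was at 74.2, 129 and 101 CPM in pSNL and 61.9, 44.5 and 48.5 CPM in sham (log2 fold change 0.97 ± 0.21, edgeR adjusted p = 0.0967). Adamts1 was at 37.2 ± 10.4 CPM in pSNL and 17.4 ± 5.06 CPM in sham. Bmp1, which trims procollagens and several proteoglycan cores, was at 72.8 ± 8.79 CPM in pSNL and 56.5 ± 4.29 CPM in sham (edgeR adjusted p = 0.101 and 0.167). Adamts5, an aggrecanase, was at 15.6 ± 2.49 CPM in pSNL and 10.4 ± 1.90 CPM in sham, without overlap (edgeR adjusted p = 0.23).

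**Figure D3:**
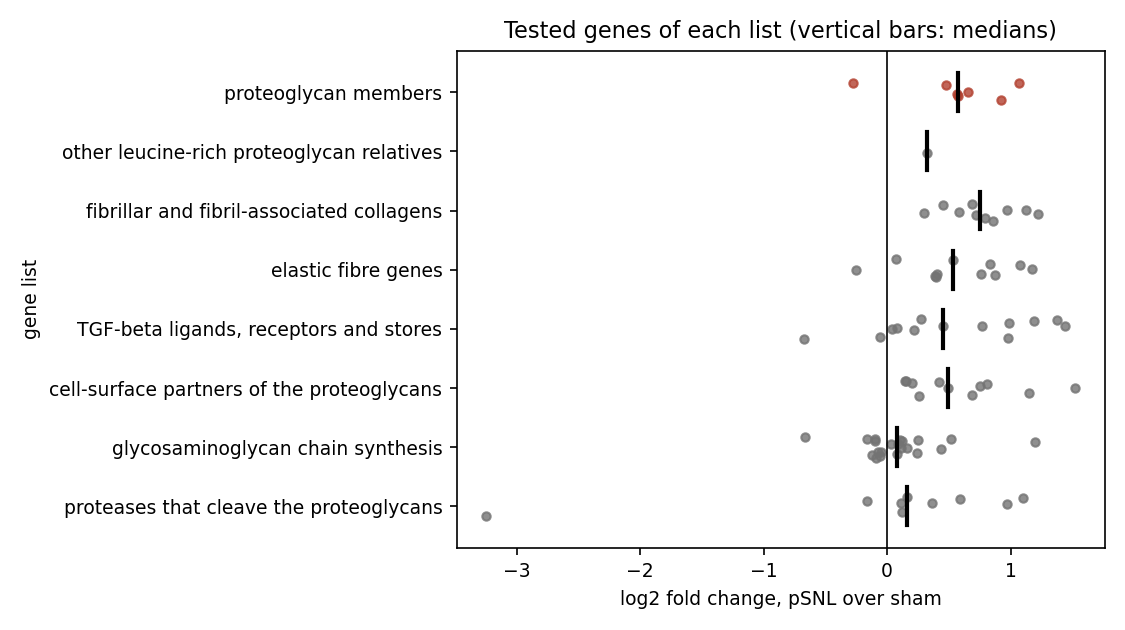
Log2 fold change of pSNL over sham for every tested gene of the proteoglycan family and of 7 related lists, 1 point per gene (points are spread up and down only to separate them), with vertical bars at the medians. The median of the family is 0.57, that of collagens 0.76 and that of chain synthesis genes 0.08, and Mmp13 is the point at -3.25.

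Fibroblast markers were higher in summed level in every pSNL library. Of 18 fibroblast markers that are not members, 16 were listed and 15 were detected in all 6 libraries, and their summed level was 4208 to 6967 CPM in pSNL and 1880 to 3850 CPM in sham. Of the 14 tested, 13 had a positive estimate, with a median of 0.73. By edgeR no adjusted p and 8 unadjusted p were under 0.05, and DESeq2 called 4, Gsn, Igfbp6, Pcolce and Thbs4. The list shares Col1a1, Col1a2 and Col3a1 with the collagen list and Fbln1, Mfap4 and Mfap5 with the elastic fibre list. The mean log2 CPM of the 14 was 6.09, 6.42 and 6.09 in pSNL replicates 1 to 3 and 5.77, 5.35 and 5.28 in sham replicates 1 to 3.

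Each member was also set against that mean within each library. The log2 level of Bgn over the fibroblast mean was 0.81, 0.71 and 0.85 in pSNL and 0.67, 0.99 and 0.96 in sham, with overlap (difference -0.08, exact permutation p = 0.6). That of Dcn was 2.48, 2.73 and 3.0 in pSNL and 2.55, 2.33 and 2.29 in sham, also with overlap (0.35, exact permutation p = 0.2). Lum was apart, at 0.78, 0.71 and 0.70 in pSNL and 0.62, 0.49 and 0.46 in sham (0.21, exact permutation p = 0.1, the smallest possible). That is 1 of the 7 members, where 21.5% of single tested genes were apart in either direction, so it is not read as a result. Ogn (-0.16), Prelp (-0.17), Omd (-0.27) and Fmod (-1.0) had negative differences with overlap (exact permutation p of 0.2 to 0.7, unadjusted over the 7 genes).

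**Figure D4:**
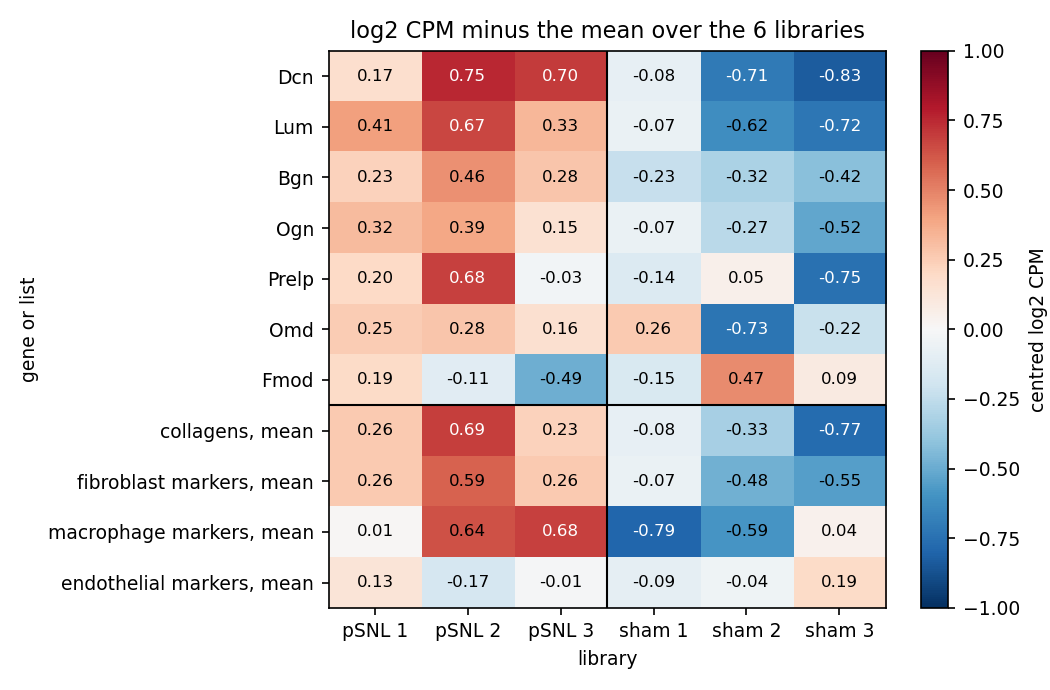
Log2 CPM of the 7 tested proteoglycan genes (upper rows) and mean log2 CPM of 4 lists (lower rows), each minus its own mean over the 6 libraries, with pSNL libraries left of sham libraries. Dcn, Lum, Bgn and Ogn are above 0 in the pSNL columns and below 0 in the sham columns, as are the collagen and fibroblast means, while Fmod is not.

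Macrophage markers summed to 330 to 554 CPM in pSNL and 190 to 254 CPM in sham, and 13 of 13 were detected in every library. Of the 13, 12 had a positive and 1 a negative estimate (median 1.17). By edgeR no adjusted p and 8 unadjusted p were under 0.05, and DESeq2 called 5 higher, C1qa, C1qb, C1qc, Csf1r and Lyz2. Perineurial markers summed to 1285 to 1536 CPM in pSNL and 1054 to 1254 CPM in sham, with 7 of 10 detected in every library. Of the 7 tested, 4 had a positive and 3 a negative estimate (median 0.04), and DESeq2 called 1 higher, Itgb4. Endothelial markers (231 to 265 CPM in pSNL, 243 to 318 CPM in sham) and pericyte and smooth muscle markers (273 to 304 CPM in pSNL, 223 to 295 CPM in sham) overlapped between groups. Bone and cartilage markers summed to 527 to 600 CPM in pSNL and 341 to 501 CPM in sham, with 7 of 13 detected in every library; of the 5 tested, 2 had a positive estimate (Cnmd and Col2a1) and 3 a negative one (Alpl, Hapln1 and Ibsp). Meningeal markers summed to 54.8 to 94.2 CPM in pSNL and 42.4 to 383 CPM in sham, where sham replicate 3 was the highest. Of the 8 meningeal markers tested, 7 had a positive and 1 a negative estimate (median 0.74), and DESeq2 called 1 higher, Crabp2. Schwann cell markers summed to 21246 to 32244 CPM in pSNL and 19077 to 22384 CPM in sham, and satellite glia markers to 5252 to 6358 CPM in pSNL and 6629 to 7100 CPM in sham. Of 11 tested Schwann cell markers, 8 had a positive and 3 a negative estimate, and DESeq2 called 3 higher, Cdh19, Drp2 and Prx. Of 9 tested satellite glia markers, 3 had a positive and 6 a negative estimate, and DESeq2 called Cdh19 higher and Fabp7 lower. The part of any of these cells in the differences of the proteoglycan genes was not tested.

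The genes outside the family with the profile closest to the mean of the 7 tested members over the 6 libraries were Ezh2, Zc3hav1, Col4a1, Secisbp2l and Abl1. The root mean square distance between their centred log2 CPM and that mean was 0.036 to 0.076, where the median over 11084 tested genes was 0.37. Col4a1, a chain of basement membrane collagen, was at 562, 644 and 527 CPM in pSNL and 440, 407 and 307 CPM in sham. Ezh2, a histone methyltransferase, was at 13.9 ± 1.91 CPM in pSNL and 9.41 ± 1.42 CPM in sham. Since the 5 were picked for a profile like that of the members, their difference between groups is a description. Among the members, Ogn lay nearest to the mean profile (0.041) and Fmod farthest (0.525).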

How the data were processed

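RNA of 3 pSNL and 3 sham libraries was measured; groups came from the sample titles. The labels' protocols name Trizol extraction, a BGIseq500 kit and total RNA. Per the file headers, the deposited tables hold expected counts, FPKM and gene lengths. Of the pipeline, the submitters' processing notes give CASAVA 1.4 and Bowtie2; no quantifier, build or annotation is named (not given in the sources used here). The FPKM values are the authors' and served for levels between genes. Genes that a file did not list were set to 0 there.

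Of 14346 gene IDs, 14227 matched the RefSeq table (GRCr8, names and order only) by ID and 16 by transcript accession. Expected counts were rounded and tested with edgeR 4.0.16 (R 4.3.3; TMM, default filter on low counts, robust quasi-likelihood F test, Benjamini-Hochberg). CPM are on TMM-scaled sizes. SE come from the test statistic. Alternatives were DESeq2 1.42.0, limma 3.58.1 on log2(FPKM + 0.1) or log2(FPKM + 1), other scalings, no filter, a replicate block and leaving out libraries. The fit was tested on simulated counts. Named genes are the 9 members, the 4 with the smallest p of each list, those in a count of 5 or fewer, and the 5 nearest profiles. Marker lists are given as sums, some also with the signs of their estimates and the genes that DESeq2 called. The values of 1 gene that this rule names are not reported here. Members and lists were chosen with earlier results of these data known.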

Additional observations from a re-analysis of the deposited data

How the results depend on the processing

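The direction of all 7 tested members held under each of 15 alternatives. Over members and alternatives, 97 values kept the side of the threshold, 4 gained a call (Dcn and Lum with DESeq2, Lum with the replicate block and without sham replicate 1) and 4 lost one (Bgn). The number of members past the threshold was 1, with 3 by DESeq2 (Bgn, Lum and Dcn) and 0 to 1 with 1 library left out. The number of genes past it was 51, against 332 with DESeq2, which was run on all genes with a count. Of the genes that edgeR tested, DESeq2 called 326. In edgeR 89 genes passed with no filter on low counts and 102 without both libraries numbered 3. Leaving out that pair of libraries was chosen after seeing their muscle markers. Bgn then passed with an adjusted p of 0.0499 in edgeR and Tgfbi did not, at 0.0967. With 1 library left out, 5 to 217 genes passed (5 without sham replicate 2, 217 without pSNL replicate 1). With the replicate block 111 genes and 2 members (Bgn and Lum) passed. Same-numbered libraries deviated together with r = 0.03, 0.01 and 0.12 for numbers 1, 2 and 3, and not every library was closest to its own number, so the numbers are not taken as pairs. The named genes outside the family gained 33 calls over all alternatives, of which 15 came with DESeq2, 6 with the replicate block, 6 without pSNL replicate 1, 2 without both libraries numbered 3 and 2 with no filter. Of these genes, Chst1 had log2 fold changes from -0.99 to 0.12 with 1 library left out, positive without sham replicate 3, and was positive without both libraries numbered 3 (0.20). The cause of these shifts was not tested. At 4.33 to 4.4 counts per CPM, depth limits Omd and Aspn most.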
